A study of Mus musculus with 2 samples.

Results

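MHC class II-high cells are here the bone-marrow barcodes in which at least 10 UMIs came from Cd74, H2-Aa, H2-Ab1 and H2-Eb1 together, where a UMI is 1 tagged RNA molecule. Only barcodes with 500 or more detected genes and a mitochondrial share below 10% of UMIs were kept. The rule found 79 cells among 7823 kept barcodes. Class II UMIs chose these cells, so the class II levels given here describe the selection and support nothing.

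The cells came from a sort for multipotent progenitors, which lie below the haematopoietic stem cell. Total bone marrow was depleted of lineage-positive cells and gated on Sca-1, c-kit, CD34 and a marker that the labels write as Flt3L+. The study had 2 groups of 1 sample each, C57BL/6 wild type and C57BL/6 Spp1-/-, which lacks the gene of the secreted protein osteopontin. Both were taken 20 hours after thioglycollate, an irritant, was injected into the peritoneum, and no untreated sample was analysed here. How many mice each sample pooled, and their sex and age, was not stated in the labels. The 2 libraries share 1 matrix and differ by a barcode suffix that no label ties to a genotype. They are called library 1 and library 2, and no difference between them is read by genotype.

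MHC class II molecules carry peptides from the endosomes to the surface of antigen-presenting cells, where CD4 T cells read them. The alpha and beta chains (H2-Aa, H2-Ab1, H2-Eb1) assemble with the invariant chain Cd74, which fills the groove until lysosomal proteases cut it away and H2-DM loads a peptide. The co-activator Ciita switches these genes on together through promoter elements called the X and Y boxes. Conventional dendritic cells hold much class II, and their type 1 branch, which presents antigen to CD8 T cells, is marked by Xcr1, Clec9a and Batf3 and needs Irf8.

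The shared promoter layout of the class II genes is printed below, since several of these genes were high together in the cells described here. RefSeq (GRCm38.p6) gave promoter windows for 11 of the 14 genes on the class II presentation list. Cd74, H2-Ab1 and Ciita had no window, so Cd74 and H2-Ab1, which are genes of the rule, were not searched. Each line holds the 130 bases before the RefSeq start, 5′ to 3′, and capitals mark TGANG (part of the X box) and GATTGG (the Y box).
H2-Aa (chr17:34287824-34287953, minus strand): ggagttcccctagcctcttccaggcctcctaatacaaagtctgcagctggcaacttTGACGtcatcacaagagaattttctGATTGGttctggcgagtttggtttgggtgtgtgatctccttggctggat
H2-Eb1 (chr17:34305737-34305866, plus strand): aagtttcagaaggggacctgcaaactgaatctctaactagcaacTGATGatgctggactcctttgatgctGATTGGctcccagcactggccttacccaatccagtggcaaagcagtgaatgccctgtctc
H2-DMb1 (chr17:34153061-34153190, plus strand): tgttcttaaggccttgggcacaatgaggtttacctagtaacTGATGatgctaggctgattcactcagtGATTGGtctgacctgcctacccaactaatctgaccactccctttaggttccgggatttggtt
H2-DMb2 (chr17:34145119-34145248, plus strand): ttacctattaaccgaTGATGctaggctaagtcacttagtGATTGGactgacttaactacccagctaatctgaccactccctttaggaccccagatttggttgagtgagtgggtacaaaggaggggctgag
For H2-DMb2 the GENCODE gene begins further upstream, at position 34143307, so the printed stretch lies inside that gene model. Between the marked letters lie 20 bases in H2-Aa, 21 in H2-Eb1, 22 in H2-DMb1 and 19 in H2-DMb2. Both strands of windows of 300 bases were searched for TGANG followed after 15 to 25 bases by GATTGG, a search set after some of these windows had been read. The pair occurred in 278 of 32851 windows (0.846%) and in 6 of the 11 class II list genes, the other two being H2-Eb2 and H2-Ob. GATTGG alone occurred in 16.1% of all windows and in 8 of the 11. A gene counted when any of its windows matched, and H2-DMa and Lgmn had 2 windows each, so these counts are not per window. Of the genes used to split the cells, Xcr1 had GATTGG without the pair, and Batf3 and Plbd1 had neither. A match of letters is a description and not a measured binding site.

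Library 1 held 50 class II-high cells among 3253 kept (1.54%, exact binomial 95% interval 1.14 to 2.02). Library 2 held 29 among 4570 (0.635%, 0.425 to 0.910). Library 2 was also deeper, with a median of 3836 UMIs per kept cell against 2830, and a fixed number of UMIs is easier to reach at greater depth. The cells themselves had median depths close to those of the other kept cells of their library, 2845.5 against 2827 UMIs in library 1 and 3773 against 3836 in library 2. With 1 library per genotype there is no test between libraries, and all intervals cover counting error only. Of the barcodes, 32 occurred in both libraries, and 0 of them were class II-high.

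The cells fell into a high and a low range of class II UMIs with a gap between them. In library 1 no cell lay between 17 and 27 class II UMIs, and in library 2 none between 17 and 171. At 20 or more there were 41 cells in library 1 (1.26%, 0.906 to 1.71) and 2 in library 2 (0.0438%, 0.00530 to 0.158). At 10 to 19 there were 9 cells in library 1 (0.277%) and 27 in library 2 (0.591%). The division at 20 was chosen once the gap had been seen. At the edge of the rule itself there was no gap: 3 cells of library 1 and 4 of library 2 had exactly 10 class II UMIs, and 8 and 10 cells had 9.

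**Figure D1:**
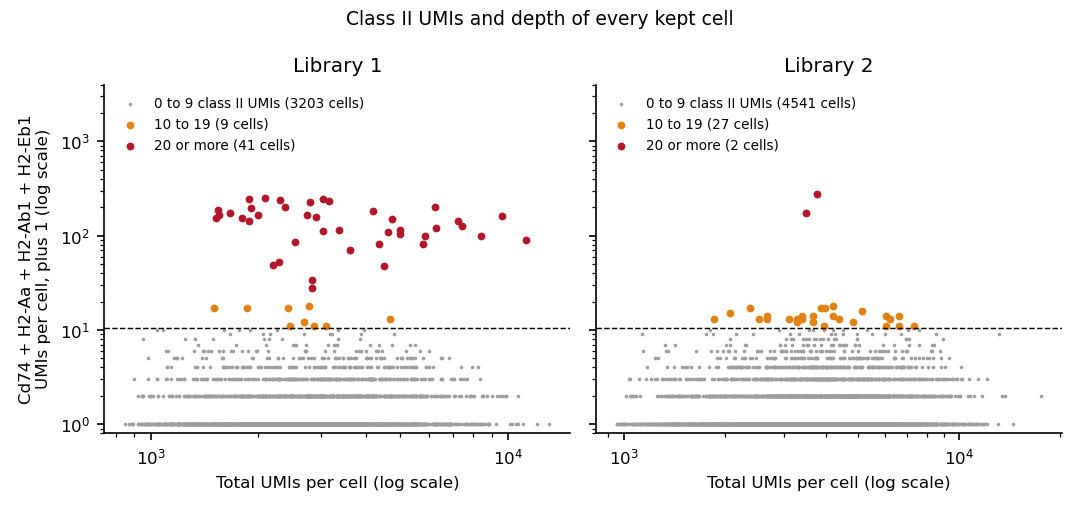
Each point is a kept cell, with its total UMIs on the x axis and its class II UMIs plus 1 on the y axis, both on log scales, and the dashed line marks the minimum of 10. In library 1, 41 cells stand apart at 27 to 250 class II UMIs and 9 lie at 10 to 17, while in library 2 only 2 stand apart and 27 lie just above the line.

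The class II share of each cell's RNA, which the choice of cells largely fixed, is given as a description. Taken as the sum of 4 class II genes per 10000 UMIs, the 41 upper cells of library 1 held from 79.1 to 1291, with a median of 336. The 9 cells at 10 to 19 held 25.6 to 106 (median 40.8), and the other kept cells had a median of 0 and a highest value of 86.4. In library 2 the 2 upper cells held 489 and 737 per 10000, and the 27 lower cells 13.7 to 67.5 (median 35.3), against a highest value of 70.6 in other kept cells. By share of RNA the lower cells therefore overlapped the cells that the rule left out, and the upper cells of library 1 did so at their lower end.

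The 4 genes also stood in different proportions in the 2 ranges. In the upper cells of library 1 Cd74 gave 44.8% of the class II UMIs (43.5 to 46.1), H2-Ab1 23.6%, H2-Aa 19.4% and H2-Eb1 12.2%. In the upper cells of library 2 the shares were 47.2%, 22.7%, 20.3% and 9.80%. Cd74 took 67.8% (58.6 to 76.1) of the class II UMIs in the lower cells of library 1 and 63.3% (58.0 to 68.5) in those of library 2. Low class II counts were widespread outside the selection: by the sum of 4 class II genes, 35.3% of other kept cells in library 1 and 39.2% in library 2 had at least 1 class II UMI, or 26.0% in each library after thinning every cell to 2000 UMIs. There Cd74 gave 53.0% and 50.3% and H2-Ab1 27.0% and 28.7%. Free RNA can give such counts, and its part was not tested.

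Genes across the transcriptome were compared in library 1, as summed UMIs per 1000000 (CPM) in the 50 class II-high cells over the same in the 3203 other kept cells. At a ratio of 4 or more, with at least 10 UMIs in the cells, stood 61 of 9916 genes with 20 or more UMIs (0.615%). At a ratio of 0.25 or less stood 6 of 2223 genes for which at least 10 UMIs were expected in the cells (0.27%). The cells were chosen by genes that move with these, so ratios are given as descriptions without a test. The 61 held the 4 genes of the rule, 5 others of the class II list (Ciita, H2-DMb1, H2-DMb2, H2-Oa, Ifi30) and 7 of the type 1 dendritic list given next. With every cell thinned to 2000 UMIs the count of higher genes was 34, with fewer genes and cells entering.

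Of the type 1 conventional dendritic genes, Xcr1, Plbd1 and Batf3 had most of their library 1 UMIs in the upper cells. Xcr1, the chemokine receptor that defines the type (ENSMUSG00000060509, GRCm38 chr9:123852315-123862029), had 14 UMIs in 12 of the 41 upper cells of library 1 and none in the 9 lower cells or the 3203 other cells. Set against a floor of 3 UMIs over the other cells, that is at least 251-fold higher in the 50 cells. Plbd1, a lysosomal phospholipase B-like protein (chr6:136612070-136661928), had 55 UMIs in 29 of the 41 upper cells, 0 in the lower cells and 2 among all other cells, a ratio of 1478 with a counting interval of 390.1 to 12506. Batf3, the transcription factor of this branch (chr1:191097847-191108945), had 21 UMIs in 16 upper cells, 1 in a lower cell and 6 in other cells (ratio 197, 77.5 to 594). These 3 genes were named in the rule for the split, and Xcr1 was found only in upper cells of library 1 and in 1 other cell of library 2.

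Of the other genes of the type 1 list, Ifi205 and Naaa were concentrated in the upper cells of library 1. Rab7b, Ppt1 and Wdfy4 had most of their UMIs in other cells. Ifi205, an interferon-inducible gene, had 47 UMIs in 23 upper cells, 2 in 1 lower cell and 2 in the other 3203 cells of library 1. Naaa, a lysosomal amidase, had 84 UMIs in 31 upper cells, 0 in lower cells and 20 in other cells. In per cent of a gene's UMIs over all kept cells of library 1, the 41 upper cells held 96.5% of Plbd1, 92.2% of Ifi205, 80.8% of Naaa and 75% of Batf3. In library 2 the 2 upper cells held 5 of 7 Plbd1, 7 of 10 Ifi205 and 3 of 5 Batf3 UMIs. Of Naaa they held only 2 of 89 UMIs (2.25%). Rab7b had 18 UMIs in 14 upper cells against 38 in other cells, and Ppt1, a lysosomal thioesterase, 90 in 32 upper cells against 500. Wdfy4, which is needed for cross-presentation, was less restricted, with 211.8 CPM in upper cells and 40.7 in other cells.

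**Figure D2:**
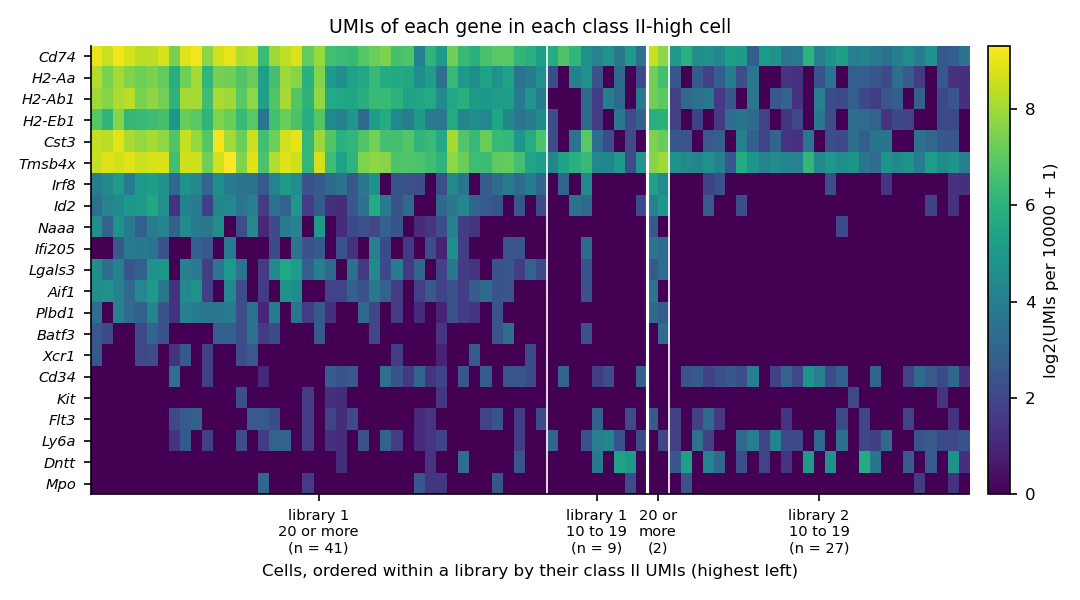
Each column is a class II-high cell, ordered within its library by class II UMIs, each row a gene, and colour gives log2 of UMIs per 10000 plus 1. Cst3 is seen in all 41 upper cells of library 1, Irf8 in 38, Id2 in 37, Lgals3 in 36, Aif1 in 32, Naaa in 31 and Plbd1 in 29. Both upper cells of library 2 hold Cst3, Irf8, Id2, Lgals3 and Plbd1, but only 1 of them holds Naaa and Aif1. Dntt UMIs lie mostly in the cells at 10 to 19.

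Over the whole type 1 list of 15 genes, the 50 cells of library 1 held 394 UMIs, or 2131 CPM against 111 in other kept cells. Of the 15 genes, 8 reached 10 UMIs found or expected in the cells, all of them at 2-fold or more higher (median log2 ratio 7.72). All 8 reached the minimum only through the class II-high cells themselves, so the count had to come out high and is a description. Among all 2567 genes that reached that minimum, 164 were 2-fold or more higher (6.39%) and 132 at 2-fold or more lower (5.14%), with a median log2 ratio of -0.16. The defining markers were not all present in number. In the 41 upper cells of library 1 Clec9a had 7 UMIs in 6 cells, Cadm1 and Tlr3 2 each, Itgae 1 and Cd8a 0, while other kept cells had 2, 3, 3, 2 and 0. In library 2 the class II-high cells held 0 of the 7 Clec9a UMIs.

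Genes shared by conventional dendritic cells were also high, with Cst3 the most abundant. Cst3, which encodes the protease inhibitor cystatin C (chr2:148871722-148875692), had 29.0 to 562 UMIs per 10000 in the upper cells of library 1 (median 117). Other kept cells had a median of 4.73 and a highest value of 42.8 per 10000, so the ranges overlapped only at the low end. In the 2 upper cells of library 2 Cst3 reached 140.1 and 178 per 10000, and in the 27 lower cells its median was 4.74, against 4.92 in other kept cells there. Id2, a repressor needed for dendritic and innate lymphoid development, was found in 37 of 41 upper cells and in 2.37% of other cells, at 909.5 against 8.15 CPM. Irf8 was found in 38 of 41 upper cells at 1015 CPM (866 to 1184) against 103 (96.8 to 109) in other cells, where 18.8% of cells had a UMI. Zbtb46 and Itgax, often used to define these cells, had 1 and 2 UMIs in the upper cells of library 1, and Relb had 0.

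Lgals3 and Aif1, genes shared by dendritic cells and macrophages and not on the type 1 list, had 88.8% and 81.9% of their library 1 UMIs in the upper cells. Lgals3, which encodes galectin-3, had 119 UMIs in 36 of 41 upper cells, 1 in lower cells and 14 in the other cells of library 1. Aif1 had 95 UMIs in 32 upper cells, 1 in lower cells and 20 in other cells. In library 2 the 2 upper cells held 5 of the 29 Lgals3 UMIs and 4 of the 25 Aif1 UMIs, and the 27 lower cells held 0 of both. Slamf7 and Slamf8, receptors of the SLAM family, had 12 and 14 UMIs in the 50 cells against 1 and 6 in all other cells of library 1, and Ccr2, a receptor for inflammatory chemokines, 12 against 27.

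The loading machinery of class II was also higher, at smaller ratios than the genes of the rule. Ciita had 11 UMIs in 9 upper cells of library 1 against 13 in 3203 other cells (ratio 45.5 over the 50 cells, 18.4 to 110.0). H2-DMb1 and H2-DMb2, beta chains of the peptide-loading molecule, had ratios of 9.99 (8.08 to 12.3) and 17.2 (9.14 to 30.7), and their alpha chain H2-DMa 3.28 (2.80 to 3.83). Ifi30, a lysosomal thiol reductase that opens disulphide bonds of antigens, had a ratio of 24.3 (16.8 to 34.6), and the invariant-chain protease Ctss 3.85 (2.89 to 5.04). Of the 14 genes on the class II presentation list, 12 reached the minimum and all 12 were 2-fold or more higher, against 6.39% of all measured genes. That count was largely fixed by the selection, since 4 are the genes of the rule and others such as Ciita and H2-DMb2 reached the minimum only through these cells. The remaining 2, H2-Eb2 and Lgmn, had 0 UMIs in the 50 cells. H2-DMb1 and H2-DMb2 have similar sequences, so their counts may be split between them.

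Class I presentation genes stood closer to the level of other cells. Of 12 genes on that list 10 were measured, 2 were 2-fold or more higher and 0 lower. Among all measured genes 6.39% were 2-fold or more higher and 5.14% lower. B2m, the light chain of class I, stood at 2596 CPM in the 50 cells and 2632 in other cells of library 1, a ratio of 0.986 (0.899 to 1.08). H2-K1 had a ratio of 0.748 (0.624 to 0.889) and H2-D1 1.22 (1.06 to 1.39). The 2 higher genes were Wdfy4, which is also on the type 1 list, and Tapbp, which bridges class I to the peptide transporter, at 2.08 (1.36 to 3.06). Wdfy4 reached the minimum only through the class II-high cells.

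Lysosomal and actin genes were also counted by list. Of 20 lysosomal genes 16 were measured, with 7 at 2-fold or more higher and 0 lower. Of all measured genes, 6.39% were 2-fold or more higher and 5.14% lower. Plbd1, Naaa, Ifi30, Ctsh, Psap and Ppt1 reached the minimum only through the class II-high cells, so they could enter only by being higher there. Of these 7, Plbd1, Naaa and Ppt1 are also on the type 1 list and Ifi30 and Ctss on the class II list, and the list sum was 4354 CPM against 1845 in other cells of library 1. Ctsh, an aminopeptidase, had a ratio of 12.7 (8.66 to 18.2) and Psap, the precursor of saposins, 7.80 (5.75 to 10.4). Of 18 measured actin and motility genes 6 were 2-fold or more higher and 0 lower. Of these 6, S100a6 reached the minimum only through the class II-high cells. The 20 genes of that list summed to 32752 CPM against 12056. Tmsb4x, the actin-binding thymosin beta 4, gave much of that sum, at 15383 against 2041 CPM, while Actb stood at 3289 against 1782 and Cfl1 at 1244 against 1186. In the upper cells of library 1 Tmsb4x ran from 35.4 to 638 UMIs per 10000 (median 182), against a median of 19.1 in other cells. Cd52, a surface glycoprotein of leukocytes, had a ratio of 7.03 (6.21 to 7.94).

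**Figure D3:**
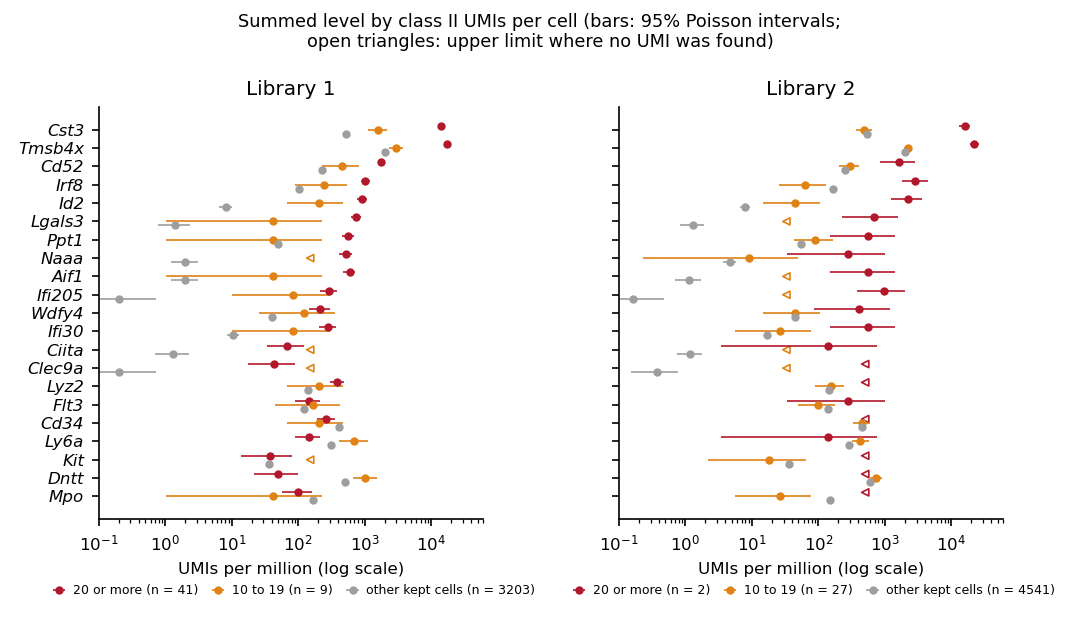
Points give summed CPM of each gene (log scale) in cells with 20 or more class II UMIs, with 10 to 19, and in other kept cells, with exact Poisson 95% intervals, and open triangles mark the upper limit where no UMI was found. Lgals3, Naaa, Aif1 and Ifi205 lie above 250 in the upper cells and below 5 in other kept cells of both libraries, while Cd34, Kit and Flt3 lie closer together.

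On the lower side the test at 0.25 covered fewer genes, and at 2-fold on 1 common set 132 of 2567 genes were lower against 164 higher. The 6 at a ratio of 0.25 or less were Capg, Dnajb1, Ifi47, Nfe2, Taf11 and Wdr43, with 2 or 3 UMIs each in the 50 cells. Among genes found in at least 20% of other cells, Dntt, the DNA polymerase of early lymphoid cells, stood at 178 CPM (33 UMIs) against 498 (ratio 0.359, 0.247 to 0.504). Adgrl4 and Adgrg1, receptors seen in stem and progenitor cells, had ratios of 0.349 (0.174 to 0.627) and 0.296 (0.128 to 0.586). Of 7 measured stem and multipotency genes 0 were 2-fold or more higher and 1 lower (Adgrl4). Of 5 measured myeloid granule genes 1 was lower (Elane, with 0 UMIs in the 50 cells and 620 in others). Those 620 UMIs lay in only 1.22% of the other cells, so finding none in 50 cells says little. Of 5 measured lymphoid priming genes Dntt was 2-fold or more lower and Cd52 and Lsp1 higher.

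UMIs of the sort markers were found in these cells, for Cd34 mainly in the deeper ones. In the 50 cells of library 1 Cd34 was at 254 CPM against 416 in other kept cells (ratio 0.611, 0.448 to 0.813), and Ly6a, which encodes Sca-1, at 216 against 313 (0.692, 0.493 to 0.944). For Ly6a the direction turned where cells were chosen at 25 class II UMIs per 10000, to a log2 ratio of 0.09. Without the 9 deepest cells the log2 ratio of Cd34 went from -0.71 to -1.28 and that of Kit from -0.16 to -1.08. Kit had 6 UMIs, or 32.5 CPM against 36.1, and Flt3 27, or 146 against 122, and both intervals of the ratio held 1 (Kit 0.327 to 1.97, Flt3 0.786 to 1.75). In the 41 upper cells a Cd34 UMI was found in 17, Ly6a in 17, Flt3 in 16 and Kit in 5. The 2 upper cells of library 2 had no Cd34 or Kit UMI, 2 of Flt3 and 1 of Ly6a.

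Of the lists of other cell types, those of monocytes and macrophages and of mature or migratory dendritic cells stood at over 2 times the level of other kept cells. In the 50 cells of library 1 the 18 monocyte and macrophage genes summed to 757 CPM against 275, and 4 of the 18 were measured, all 2-fold or more higher, where 6.39% of all measured genes were. These were Lyz2 (2.61), Ms4a6c (2.45), Cd68 (3.17) and Ccr2 (23.9), while Ly6c2, Csf1r and Adgre1, which define monocytes and macrophages, had 0 UMIs in the upper cells. Ccr2 and Cd68 reached the minimum only through the class II-high cells, so their count had to come out high. Below the minimum, C1qb, a complement gene of macrophages, had 4 UMIs in the 50 cells (ratio 7.68, 1.96 to 21.9), Ms4a4c 3 (6.20, 1.20 to 20.2), C1qc 3 and C1qa 1. By CPM, the neutrophil list summed to 27.0 against 23.3, the B cell list to 48.7 against 76.8 with Cd79a and Ebf1 at 0 and Ms4a1 at 1 UMI in the upper cells, and the T, NK and innate lymphoid list to 157 against 352 with Cd3e at 0. The type 2 dendritic list held 3 UMIs in the 50 cells and Sirpa 0. The list of mature or migratory dendritic cells held 17 UMIs, or 92.0 CPM against 40.3. Its co-stimulatory gene Cd86 had 5 UMIs (ratio 5.17, 1.61 to 12.8) and Cd83 2 (35.8, 2.99 to 313), with Fscn1 and Ccl22 at 0 and Ccr7 at 1 UMI in the upper and 1 in the lower cells. The plasmacytoid list summed to 297 CPM against 344, with Siglech and Cox6a2 at 0 in the upper cells. The part of other cell types in these values was not tested.

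**Figure D4:**
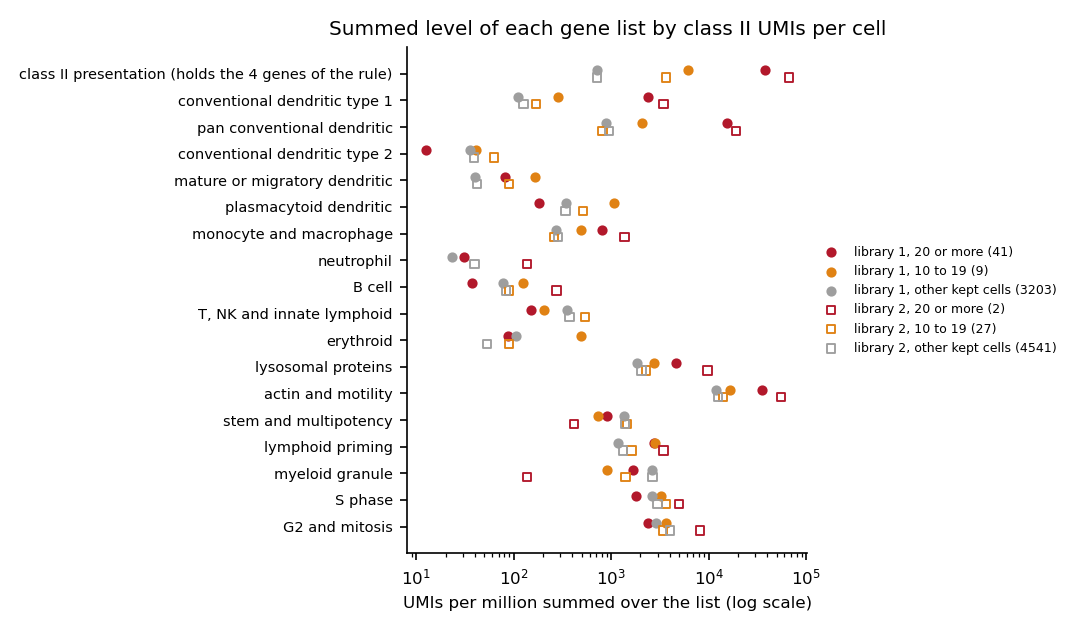
Each row is a gene list and each point its CPM summed over the list (log scale), with filled circles for library 1, open squares for library 2 and colours for the range of class II UMIs, and a list with no UMI in a group has no point there. The upper cells of both libraries lie far to the right for the class II, type 1 and pan dendritic lists, and for the list: conventional dendritic type 1 the cells at 10 to 19 of library 2 lie at 171 CPM, near the 126 of other kept cells.

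The cells at 10 to 19 class II UMIs of library 2 stood close to the other progenitors outside the genes of the rule. These 27 cells had 4 genes at 4-fold or more higher among 10670 (0.0375%), and these were the 4 genes of the rule. At a ratio of 0.25 or less were 3 of 1598 genes (0.188%): Ctsg with 1 UMI and Mpo with 3, both myeloid granule enzymes, and Ccdc124 with 3. This comparison was added after the data were seen. For the 29 cells of library 2 together, 7 of 10670 genes stood at 4-fold or more (0.0656%), adding Id2, Rnase6 and Pkp3, and 16 of the 21 Id2 UMIs and 9 of the 10 Rnase6 UMIs came from the 2 upper cells. Ctsg and Mpo were the 2 of 1686 genes at 0.25 or less (0.119%). Dntt stood at 744.9 CPM in the 27 cells against 595 in other kept cells, Cd34 at 448.7 against 457 and Ly6a at 430.8 against 293. They held 0 UMIs of Xcr1, Batf3, Plbd1, Ifi205, Lgals3 and Aif1, so a count of 3, the limit that 0 allows, is 3 UMIs in 111431.

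In library 1 the 9 lower cells were mixed. A single cell with 16 class II UMIs was the only lower cell with any of Xcr1, Batf3 or Plbd1. It held 1 Batf3 UMI, 29 of the 38 Cst3 UMIs and 5 of the 6 Irf8 UMIs of the 9 cells. Dntt was at 1027 CPM in the 9 cells (664 to 1516) against 49.8 in the 41 upper cells and 498 in other cells. Ly6a was at 698 (407 to 1118) against 143 in the upper cells.

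Separating the class II-high cells by Xcr1, Batf3 and Plbd1 gave 33 cells with at least 1 UMI of these genes and 17 without in library 1. In library 2 there were 2 with and 27 without. Of the 33, 10 had Plbd1 only, 3 Batf3 only, 1 Xcr1 only, 8 Batf3 and Plbd1, 5 Xcr1 and Plbd1 and 6 all 3 genes. The split followed the class II range in large part: 32 of the 33 were upper cells, and 8 of the 17 without were lower cells. Both upper cells of library 2 had Plbd1, and 1 of them also had Batf3.

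Between the 33 and the 17 cells, 56 of 2244 genes stood at 4-fold or more in the cells with these genes (2.5%) and 9 in the cells without (0.401%). Among the 56 was Plbd1 (55 UMIs against 0), whose place was fixed by the split itself. At least 10 UMIs were asked for in the higher part, and the 17 cells held fewer UMIs in all. A call was therefore harder to reach on their side, and the 2 counts are not on equal terms. Higher with them were H2-DMb1 (103 against 8 UMIs, ratio 6.51, 3.18 to 15.5), Ctsh (35 against 3, 5.89), Ifi30 (43 against 4, 5.43), Naaa (76 against 8, 4.80) and Anxa2, a membrane-binding annexin (56 against 4, 7.07, 2.61 to 26.9). Not among the 56 were Ctsg, with 20 UMIs in 6 of the 33 cells and 0 in the 17, and Slamf8, with 14 and 0. Set against a floor of 3 UMIs, these were at least 3.37-fold and 2.36-fold higher. Many of the 56 rested on 10 to 20 UMIs with wide intervals, such as Alyref with 17 against 1 (8.59, 1.35 to 359). Higher without them were Dntt (29 UMIs in 6 of 17 cells against 4 in 1 of 33, ratio 0.0697, 0.0178 to 0.198) and Cox6a2, known from plasmacytoid dendritic cells (11 UMIs in 2 cells against 0). Cox6a2 was also found in 15.1% of the other kept cells of library 1. It stood at 87.3 CPM there, against 59.5 in all class II-high cells of that library. Rab11fip5 had 14 of its 16 UMIs in 1 cell. The counts moved with how the split was made. With 2 or more UMIs asked for, 11 of 2244 genes stood higher with and 35 without. Within the 41 upper cells alone, 51 of 1966 genes stood higher with and 2 without.

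The 9 upper cells without the 3 genes carried the dendritic genes at a lower level. They held 95.6 to 1008 class II UMIs per 10000 with a median of 188, against 79.1 to 1291 and a median of 485 in the 32 with. Their median depth was higher, 4490 against 2811.5 UMIs. Cst3 was found in all 9, at 9445 CPM (8518 to 10446) against 15465 (14770.4 to 16184) in the 32. Ifi205 was found in 6 of the 9 and 17 of the 32, at 249 (119.5 to 458) against 307 (216 to 424), intervals that overlap. Id2 was found in 8 of 9 at 449 (266 to 709) against 1063 (887 to 1264).

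Among the upper cells of library 1 the share of class II varied 16.3-fold and fell with depth. Across the 41 cells Spearman's rho was -0.786 between total UMIs and class II per 10000, and 0.878 between the class II and Cst3 shares. Between total UMIs and the class II UMIs themselves, undivided by depth, rho was -0.349. These are descriptions across cells of 1 library, in which shares and depth are computed from the same totals. At or above the median depth of the library (2830 UMIs) were 23 cells and below it 18. Each cell was then thinned to 1500 UMIs, below the shallowest at 1528. The 18 shallower cells kept 121 class II and 43.5 Cst3 UMIs per cell, and the 23 deeper cells 43 and 16.3.

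At that equal depth Cd34, the stem and multipotency genes and the cycling genes lay with the deeper cells. Cd34 was found in 0 of the 18 shallower and 8 of the 23 deeper cells (before thinning, in 1 and 16). At least 1 UMI of the 16 stem and multipotency genes was found in 3 of 18 against 16 of 23, of the 20 S phase genes in 7 of 18 against 22 of 23, and of the 20 genes of G2 and mitosis in 9 of 18 against 23 of 23. Naaa lay the other way, with a UMI in 13 of 18 shallower and 7 of 23 deeper cells, as did Plbd1 in 12 of 18 and 6 of 23. Irf8 was found in 15 of 18 and 12 of 23. The lymphoid priming list held 8.56 UMIs per shallower cell and 3.43 per deeper cell. Before thinning it held 200 UMIs in the shallower and 247 in the deeper cells. Most of these came from Cd52 (286) and Lsp1 (132). Both genes were higher in the class II-high cells than in other kept cells, with ratios of 7.03 and 4.48. The list sum therefore does not show where progenitor genes lay, and its other genes were not tested by depth. The myeloid granule list held 1.22 UMIs per shallower cell and 2.22 per deeper cell. Its gene Mpo kept only 1 UMI after thinning, in 1 of 18 shallower and 0 of 23 deeper cells. Before thinning Mpo had 1 UMI in 1 shallower cell and 15 UMIs in 5 deeper cells. The split by depth was chosen after the data were seen. Deep barcodes can hold more than 1 cell, doublets were not called, and their part in these values was not tested. Of the 50 class II-high cells of library 1, 9 had at least 2 times the median UMIs of the library. Without these deepest cells 57 of 9902 genes stood at 4-fold or more higher and 15 of 1517 at 0.25 or less.

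**Figure D5:**
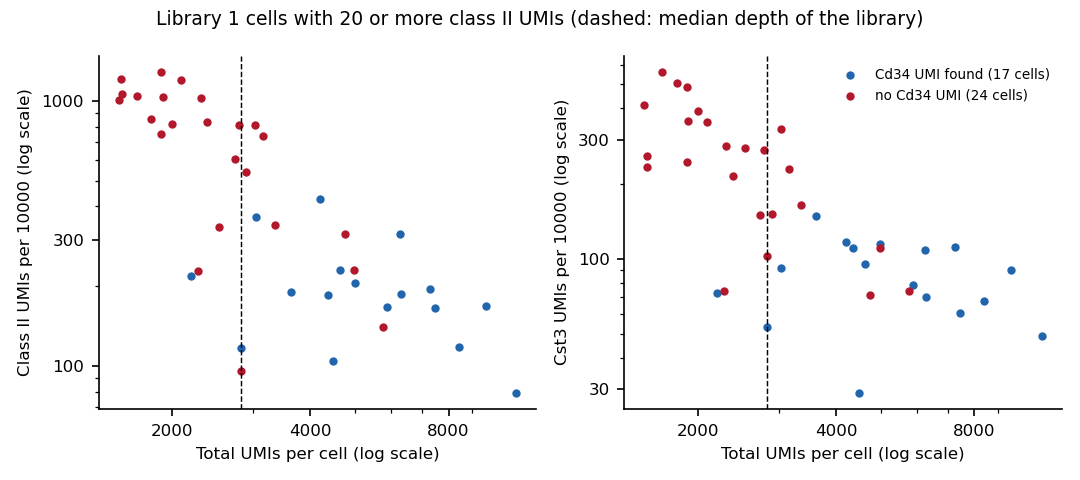
Each point is 1 of the 41 library 1 cells with 20 or more class II UMIs, with total UMIs on the x axis and class II (left) or Cst3 (right) UMIs per 10000 on the y axis, all on log scales. Both shares fall from left to right, and 16 of the 17 cells with a Cd34 UMI lie at or to the right of the dashed library median of 2830 UMIs.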

How the data were processed

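The authors deposited 1 matrix of UMI counts per gene (27998 genes, 7884 barcodes), made with Cell Ranger 1.1 on mm10 per the submitters' processing notes. Read filtering, cell calling and depth equalisation are not given in the sources used here. Barcodes with at least 500 genes and under 10% mitochondrial UMIs were kept, and a cell entered with 10 or more UMIs of Cd74, H2-Aa, H2-Ab1 and H2-Eb1. UMIs were summed over cells and scaled to 1000000 UMIs (CPM). Levels carry exact Poisson, shares exact Clopper-Pearson and ratios exact conditional Poisson 95% intervals, which cover counting error only. A group at 0 was set to a floor of 3 counts. There were no replicates, so no test was made between libraries. The interval code was tested on simulated data. No doublet caller was run and no barcode was removed as a doublet. For shares at equal depth, cells were thinned at random to 2000 UMIs, which left 32 of 41 upper cells and 2405 of 3203 other cells in library 1.

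The cells and lists were chosen with earlier results of these data known. Named genes were the 30 highest and 20 lowest ratios among genes in at least 20% of cells, the 15 highest on each side of the split with 10 or more UMIs, up to 6 per list by UMIs and up to 6 by ratio, the genes of the rule and the sort markers. Other genes named in the text were chosen after their values were seen. Positions came from GENCODE M21 (GRCm38, 27645 identifiers matched) and promoters from RefSeq. Alternatives changed the class II minimum, the cell filter, the summary, the depth, the gene minimum, the scaling, the split and the reference cells. Python 3.11.15, numpy 2.4.6, scipy 1.17.1 and pandas 2.3.3 were used.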

Additional observations from a re-analysis of the deposited data

How the results depend on the processing

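The number of class II-high cells followed the minimum. A minimum of 5 UMIs gave 123 and 162 cells in libraries 1 and 2, a minimum of 20 gave 41 and 2, and a minimum of 25 per 10000 UMIs gave 100 and 48. The 61 genes at 4-fold or more higher fell to 34 after thinning to 2000 UMIs, where 8656 genes were tested, and lay between 42 and 70 under the other 10 alternatives. The 6 lower genes of 2223 tested became 12 of 1969 at a minimum of 20, 18 of 2223 by the mean over cells and 15 of 1517 without the deepest cells. Of the split, the 56 genes of 2244 tested became 15 of 1062 after thinning. They became 11 of 2244 when 2 UMIs were asked for and 2 of 2244 for Xcr1 alone. The 9 genes higher without became 134 of 3949 tested (minimum 5), 2 of 1966 (minimum 20, or within the upper cells) and 63 of 3037 (25 per 10000). They became 15 of 1062 when thinned and 15 of 1466 without the deepest cells. With 2244 genes tested they became 19 (mean over cells), 35 (2 UMIs) and 64 (Xcr1 alone). The median log2 ratio of the type 1 list was 6.53 at a minimum of 5 and otherwise at least 7.08. The pan dendritic median (4.55) moved to 3.55 (minimum 5), 4.72 (minimum 20), 4.05 (25 per 10000), 4.16 (1000 genes and 5% mitochondrial), 4.89 (mean over cells), 4.41 (thinned) and 4.83 (without the deepest cells). The lysosomal median (0.82) was 2.48 after thinning, with fewer genes measured. Lymphoid priming (-0.32) turned to 1.02 (25 per 10000), 0.94 (1000 genes), 2.29 (thinned) and 1.08 (without the deepest cells). The chemokine list (4.58) moved to 0.38 at a minimum of 5 and 1.13 at 25 per 10000, and changed sign to -0.40 without the deepest cells. At 25 per 10000 the log2 ratio of Ly6a and the median of the sort markers both changed sign, to 0.091. The causes were not tested. The deepest-cell and upper-cell alternatives were added after seeing the data. No paired analysis was possible because each group had 1 sample.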
